A study of Oryza sativa with 12 samples.

Results

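A group of 58 rice probe sets gave much higher signals in meiosis-stage inflorescences grown at low temperature than at high temperature, to nearly the same level in a thermosensitive male sterile line and in its wild type. They were taken from 57194 probe sets of the Affymetrix rice array, which is what remained of 57381 after 187 control probe sets were left out. A probe set was included when its mean log2 signal was higher by at least 2.5 at low temperature in each of the 2 lines, when both low-temperature means were at least 8, and when the lines differed by less than 0.5 at low temperature and by less than 1 at high temperature. The 58 probe sets were thus chosen by their own group means, that is, by the temperature difference of each line and the closeness of the lines, and these values are given below as a description, without a test. A difference of 1 on the log2 scale is a 2-fold difference in signal.

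The 2 lines were H1493, the wild-type japonica variety Hejiang 19, and TGMS-Co27, a transgenic line made in H1493 in which Ugp1, the gene of UDP-glucose pyrophosphorylase, is cosuppressed by a transgene whose aberrant Ugp1 transcripts hold the Ubi1 intron. TGMS-Co27 is male sterile in warm conditions and fertile in cool ones, and the pollen mother cells of sterile plants begin to degenerate at the meiosis stage, which is why that stage was sampled. Both lines were grown in the field, germinated in May or November, and were harvested in July at Wuhan, at a daily average of 28 °C (groups H1493HT and Co27HT), or in January at Lingshui in the south of China, at 20 °C (groups H1493LT and Co27LT). Each group had 3 biological replicates, each hybridised to an array of its own, which gave 12 arrays. Temperature, site, season and day length differed together between the groups, so they cannot be told apart, and "temperature" here names all of them. TGMS-Co27 is a single transgenic line, so its difference from H1493 is that of one line.

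Rice comes from warm climates, and cool weather during pollen development is a known cause of lost seed set in this crop. Plants in the cold are known to change membrane and wall composition, sugar metabolism, protein folding and the actin cytoskeleton. Part of this is set at the level of transcription, where the paper names the CBF/DREB factors as well-known activators in the cold. The bZIP and heat stress factors are described below because probe sets of both families are in the group. They were not chosen as known regulators of cold responses. The inflorescence at meiosis holds lemma, palea, pistil and stamens, and only a small share of its cells are meiocytes or tapetum. In such bulk tissue, fewer cells of a type and less RNA per cell cannot be told apart.

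In TGMS-Co27, the low-temperature means of the 58 probe sets stood above the high-temperature means by 2.52 to 5.40 on the log2 scale, with a median of 3.20, which is a 9.21-fold difference. In H1493 the range was 2.51 to 4.71 and the median 2.99, which is 7.97-fold. Over all 57194 probe sets the medians were -0.16 and -0.07. In either line, every low-temperature array lay above every high-temperature array for all 58 probe sets, as it did in both lines for 14.8% of all probe sets. The gap between the lowest low-temperature array and the highest high-temperature array ran from 2.03 to 5.02 in TGMS-Co27 and from 1.94 to 4.39 in H1493. In the limma fit over all probe sets, a call needed a Benjamini-Hochberg adjusted p under 0.05 and a 2-fold difference. All 58 were called higher in each line, beside 7.06% of all probe sets in TGMS-Co27, 5.34% in H1493 and 3.8% in both, and since the rule used these contrasts nothing is read from that count. The lower calls made up 7.31%, 6.24% and 4.14% of all probe sets in turn. Of all calls between temperatures, those in the higher direction made up 49.1% for TGMS-Co27 and 46.1% for H1493 as deposited, and 69.6% and 61.5% after each array was centred on its median, which moved the median difference of all probe sets from -0.16 to 0.12 and from -0.07 to 0.11. The medians of the 58 then became 3.49 and 3.17.

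**Figure D1:**
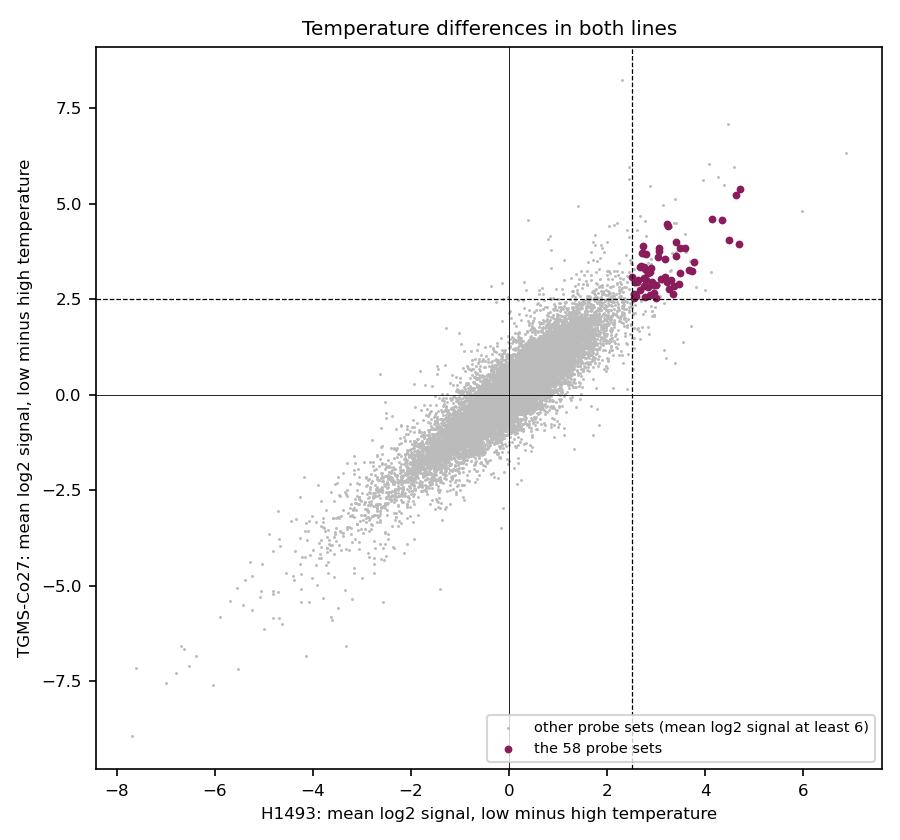
Log2 difference between low and high temperature in TGMS-Co27 (vertical axis) against that in H1493 (horizontal axis), with the 58 probe sets in purple, the others whose mean log2 signal over the 12 arrays is 6 or more in grey and the limit of 2.5 dashed. The purple points reach 5.40 in TGMS-Co27 and 4.71 in H1493, and grey points past both dashed lines failed another limit of the rule.

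Step by step, 769 probe sets had a difference of at least 2.5 in TGMS-Co27, 586 in H1493 and 198 in both. Of these, 93 also had low-temperature means of at least 8, 67 of those differed by less than 0.5 between the lines at low temperature, and 58 met the last limit as well. Just inside the limit on the TGMS-Co27 difference stood Os.17370.3.S1_at at 2.523, and just outside stood LOC4336886 at 2.464. For the H1493 difference these were OsAffx.13663.1.S1_x_at at 2.515 and LOC9272035 at 2.488, and for the lower low-temperature mean OsAffx.12663.1.S1_at at 8.123 and LOC4324902 at 7.991. The line difference at low temperature was 0.499 in size for LOC4334020 and 0.508 for LOC4324844, and that at high temperature was 0.955 for LOC4340124 and 1.139 for LOC4336058. Each of these is the probe set nearest to the limit on its side, so their closeness follows from that choice. Whether the 58 form a class apart from their neighbours was not tested.

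The labels and the tissue were checked first. The cosuppressed gene Ugp1 (probe set Os.10118.1.S1_at) had log2 signals of 13.42, 13.43 and 13.36 in H1493HT and 11.36, 11.39 and 11.44 in Co27HT, and of 13.62, 13.64 and 13.57 in H1493LT and 12.91, 12.89 and 12.86 in Co27LT, so TGMS-Co27 lay below H1493 on every array at either temperature. By the authors' detection calls, 3 of 3 stamen markers and 5 of 6 meiocyte markers were present on all 12 arrays. So were 2 of 3 measured markers of tapetum, 3 of 3 of green tissue and 3 of 4 of lemma, palea and carpel. By the brightest probe set of each gene, all 6 meiocyte markers had higher means at low temperature in both lines. Their differences were 0.46 to 1.69 in TGMS-Co27 and 0.27 to 1.05 in H1493. Each other set held markers of either direction in H1493, some of them near 0, and in TGMS-Co27 only the green tissue set did. Summed linear signals of 3 of 4 listed green tissue markers were 5726 to 6612 in H1493HT, 24322 to 25690 in H1493LT, 2579 to 2868 in Co27HT and 16766 to 17101 in Co27LT, with 2 of 3 called higher and 1 lower at low temperature in each line. For 6 meiocyte markers the sums were 7722 to 8376 and 13318 to 13669 in H1493, and 8131 to 8739 and 12639 to 12884 in TGMS-Co27, at high and low temperature in turn, with 1 and 4 of 6 called higher (the 1 in H1493, MER3, lost its call without H1493HT replicate 2). For the 3 stamen markers the sums were 12839 to 13824 and 9342 to 9498 in H1493, and 13040 to 14448 and 8031 to 8332 in TGMS-Co27. Of these genes only MADS3 was called lower, in both lines. SPW1, the brightest, was at -0.89 in TGMS-Co27 (limma adjusted p = 5.3e-05) and -0.58 in H1493 (adjusted p = 0.00088), and failed only the 2-fold limit. MADS58 was at -0.10 in TGMS-Co27 (adjusted p = 0.49) and 0.04 in H1493 (adjusted p = 0.82). Sums of 3 of 4 listed tapetum markers were 5671 to 6058 and 5808 to 6196 in H1493, and 7049 to 7560 and 6026 to 6149 in TGMS-Co27. Those of 4 lemma, palea and carpel markers were 16674 to 17869 and 16608 to 17336 in H1493, and 18500 to 19612 and 17704 to 18417 in TGMS-Co27. In TGMS-Co27, 1 marker of each of these sets was called lower. With median centring the lower calls of the stamen gene MADS3 in both lines (in TGMS-Co27 also without Co27LT replicate 1), of the carpel gene MADS13 in TGMS-Co27 and of the green tissue gene RBCS in H1493 were lost. The green tissue and meiocyte sums moved with temperature in the direction of the 58 probe sets, and their part in the result was not tested. At low temperature each sum came mostly from 1 gene. These were CAB2R (mean log2 14.27 in H1493LT and 13.72 in Co27LT) and MEL1 (13.29 and 13.13). MEL1 was not called as deposited, by the 2-fold limit alone (0.46 in TGMS-Co27, limma adjusted p = 0.0022, and 0.83 in H1493, adjusted p = 7.1e-05). RBCS was called lower in both lines. Whether the make-up of the tissue differed between temperatures was not tested.

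At high temperature the group means of the 58 probe sets ran from 3.47 to 10.65 in H1493 (median 6.99) and from 2.74 to 11.12 in TGMS-Co27 (median 6.80). The median member stood at the 62.5th and 61.4th percentile of all probe sets there. At low temperature the means ran from 8.12 to 13.91 (median 10.07) and from 8.14 to 13.89 (median 9.97), and the median member stood at the 83.6th and 82.8th percentile. The replicates lay close together at low temperature, where the median SD was 0.05 in H1493 and 0.08 in TGMS-Co27, and farther apart at high temperature, with 0.24 and 0.27. Other probe sets of the same signal levels had median SDs of 0.07, 0.08, 0.25 and 0.30 in H1493LT, Co27LT, H1493HT and Co27HT, so the spread of the 58 was about that of any probe set this bright. The authors' detection calls were present on all 12 arrays for 42 of the 58, against 36.8% of all probe sets, on 7 to 11 arrays for 11 and on 6 for 4. OsAffx.2821.1.S1_at was called present on only 2 arrays, although its low-temperature signals were 9.23 to 9.97. In 16 of the 58, the high-temperature mean of a line lay under 6, near background, and there the difference is not an exact size, nor is it in members not called present on all 12 arrays.

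**Figure D2:**
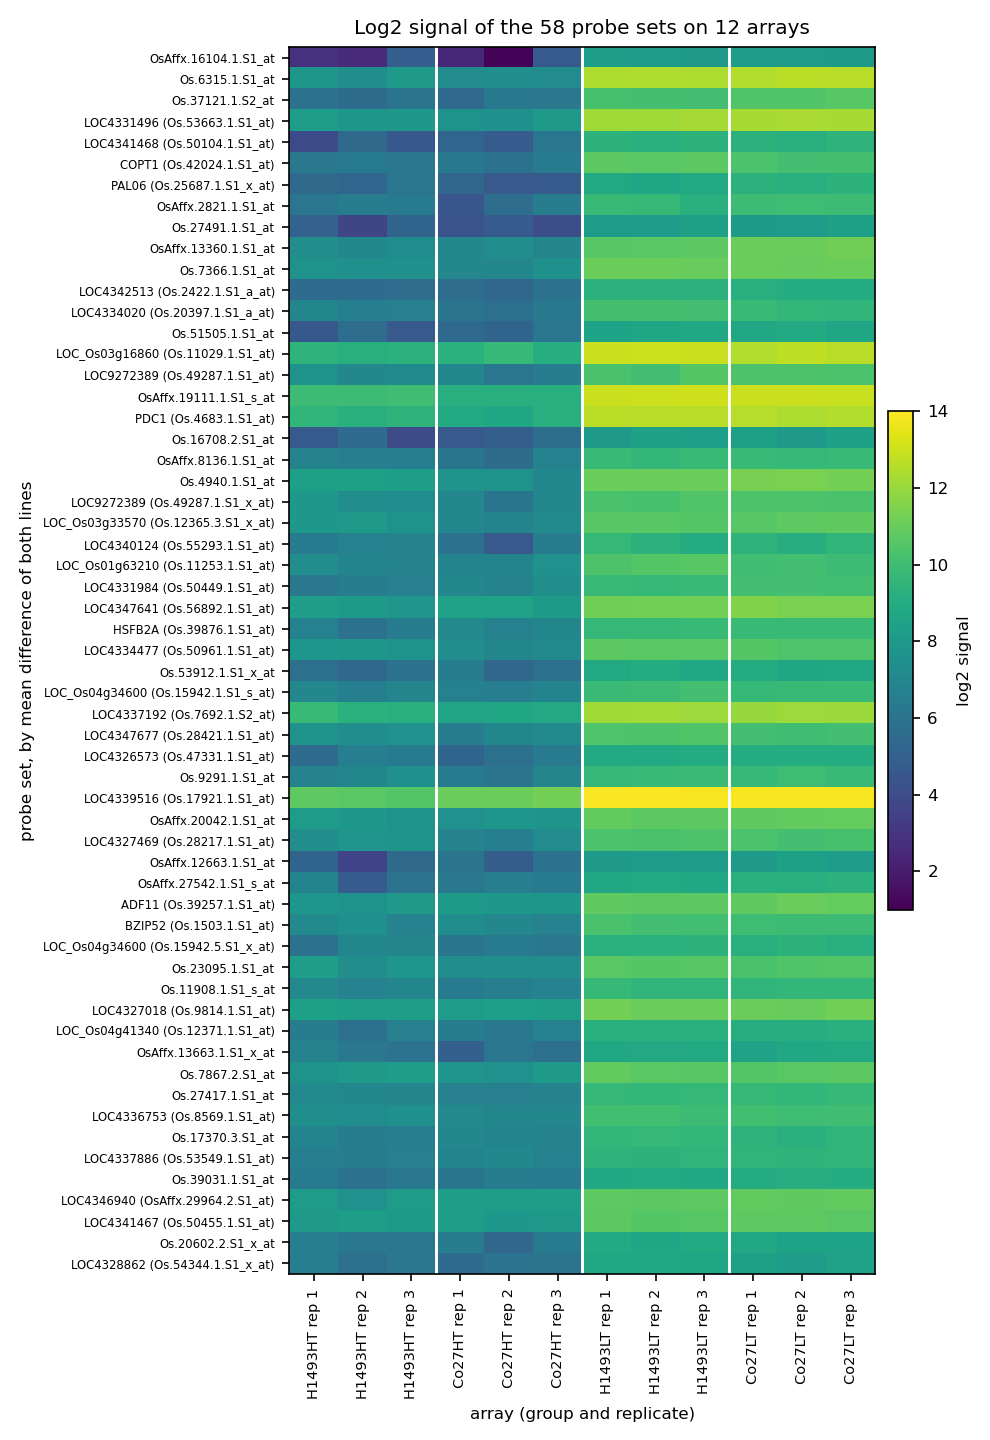
Log2 signal (colour) of each of the 58 probe sets (rows, by the mean difference of both lines) on each of the 12 arrays (columns, by group and replicate). The 6 low-temperature arrays are brighter than the 6 high-temperature arrays in every row, and the largest scatter is among high-temperature arrays.

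The array's annotation gives 1 gene to 30 of the 58 probe sets (51.7%, against 39.2% of all probe sets) and no gene to 28. A symbol in RefSeq or a locus description in the study's supplementary tables gave 12 probe sets, standing for 11 genes, a name that says something of function. These 11 were a copper transporter, enzymes of fermentation and phenylpropanoid synthesis, a chaperone, a heat stress factor and a bZIP factor, an actin regulator, an abscisic stress-ripening protein, a heme-binding protein, a phosphatase and a locus whose name is in doubt. In these 12, the difference was 2.67 to 4.46 in TGMS-Co27 and 2.72 to 4.48 in H1493.

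COPT1, on chromosome 1, encodes a copper transporter of the CTR family, which carries copper into the cell. Its log2 signals were 6.19, 6.35 and 6.13 in H1493HT and 10.72, 10.68 and 10.70 in H1493LT. In TGMS-Co27 they were 6.28, 5.85 and 6.39 at high and 10.30, 10.14 and 10.19 at low temperature. The high-temperature arrays of the lines overlapped, the low-temperature arrays did not, and H1493 was the higher there. The difference was 4.48 ± 0.14 (SE) in H1493, a 22.3-fold difference, and 4.04 ± 0.14 in TGMS-Co27, a 16.4-fold difference. COPT1 was called present on only 8 of the 12 arrays, so these folds are not exact sizes. The other copper transporter genes with a symbol were COPT2, COPT3 and COPT5.1, a family looked up after the values were seen. Their differences were 0.34 to 1.82 in TGMS-Co27 and -0.76 to 0.70 in H1493. None met both limits of a call in either line, also with an unadjusted p. COPT5.1 in TGMS-Co27 (0.34, limma adjusted p = 0.0082) failed only the 2-fold limit. Over all genes with a symbol, 11.7% were called higher in TGMS-Co27 and 9.19% in H1493, so nothing is read from a count of 3 genes. COPT5.1 had means of 11.42 ± 0.05 and 11.58 ± 0.03 in H1493HT and H1493LT (SD, n = 3), and of 11.35 ± 0.06 and 11.69 ± 0.03 in Co27HT and Co27LT. COPT2, which was dim, passed in TGMS-Co27 when Co27HT replicate 2 was left out.

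PDC1, on chromosome 5, encodes pyruvate decarboxylase, which turns pyruvate into acetaldehyde in the first step of ethanol fermentation, a route that plants use when oxygen is short. It was a bright probe set at either temperature, at 9.57, 9.26 and 9.48 in H1493HT and 12.64, 12.59 and 12.61 in H1493LT. In TGMS-Co27 it was at 8.97, 8.64 and 9.16, and at 12.54, 12.40 and 12.49. TGMS-Co27 lay below H1493 on every array at either temperature, by 0.52 at high and 0.14 at low temperature in the means. The difference was 3.55 ± 0.14 in TGMS-Co27 (11.7-fold) and 3.17 ± 0.14 in H1493 (9.03-fold). PDC2 went from 13.24 to 13.68 in TGMS-Co27 (difference 0.44, limma adjusted p = 0.0032) and from 13.08 to 13.93 in H1493 (0.84, adjusted p = 7.5e-05), under the 2-fold limit in both lines except in H1493 after median centring. A less bright probe set of PDC2 was called in H1493 at 1.33 (adjusted p = 2.6e-05) and not in TGMS-Co27 (0.81, adjusted p = 0.00044). PDC3 was dim and was not called. ADH2, an alcohol dehydrogenase that takes the next step from acetaldehyde to ethanol, gained 1.26 in TGMS-Co27 (adjusted p = 0.00036) and 1.71 in H1493 (adjusted p = 6.6e-05), without overlap between the temperatures. Both families were looked up after the values were seen.

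PAL06, on chromosome 2, encodes a phenylalanine ammonia-lyase, the enzyme at the entry to the phenylpropanoids from which lignin and flavonoids are made. Log2 signals were 5.48, 5.24 and 6.11 in H1493HT and 8.92, 8.70 and 8.90 in H1493LT. They were 5.29, 4.61 and 4.69 in Co27HT and 9.35, 9.21 and 9.41 in Co27LT. At low temperature all TGMS-Co27 arrays lay above all H1493 arrays, while at high temperature the lines overlapped. With 4.46 ± 0.24 (21.9-fold) in TGMS-Co27 and 3.23 ± 0.24 (9.38-fold) in H1493, PAL06 was the member whose temperature difference was furthest apart between the lines, by 1.23. The 2 high-temperature means lay under 6, so these folds are not exact. Another PAL06 probe set without the cross-hybridisation mark, Os.25687.1.S1_at, gave 4.21 and 3.59 and missed the rule only because the lines differed by 0.55 at low temperature. Among the other 29 genes of the phenylpropanoid and flavonoid list, 4 were called higher and 7 lower in TGMS-Co27, and 3 and 7 in H1493, with median differences of -0.73 and -0.32. Among all 2915 genes with a symbol, the shares called higher and lower were 11.7% and 11% in TGMS-Co27 and 9.19% and 10.2% in H1493, with medians of 0.01 and 0.01.

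**Figure D3:**
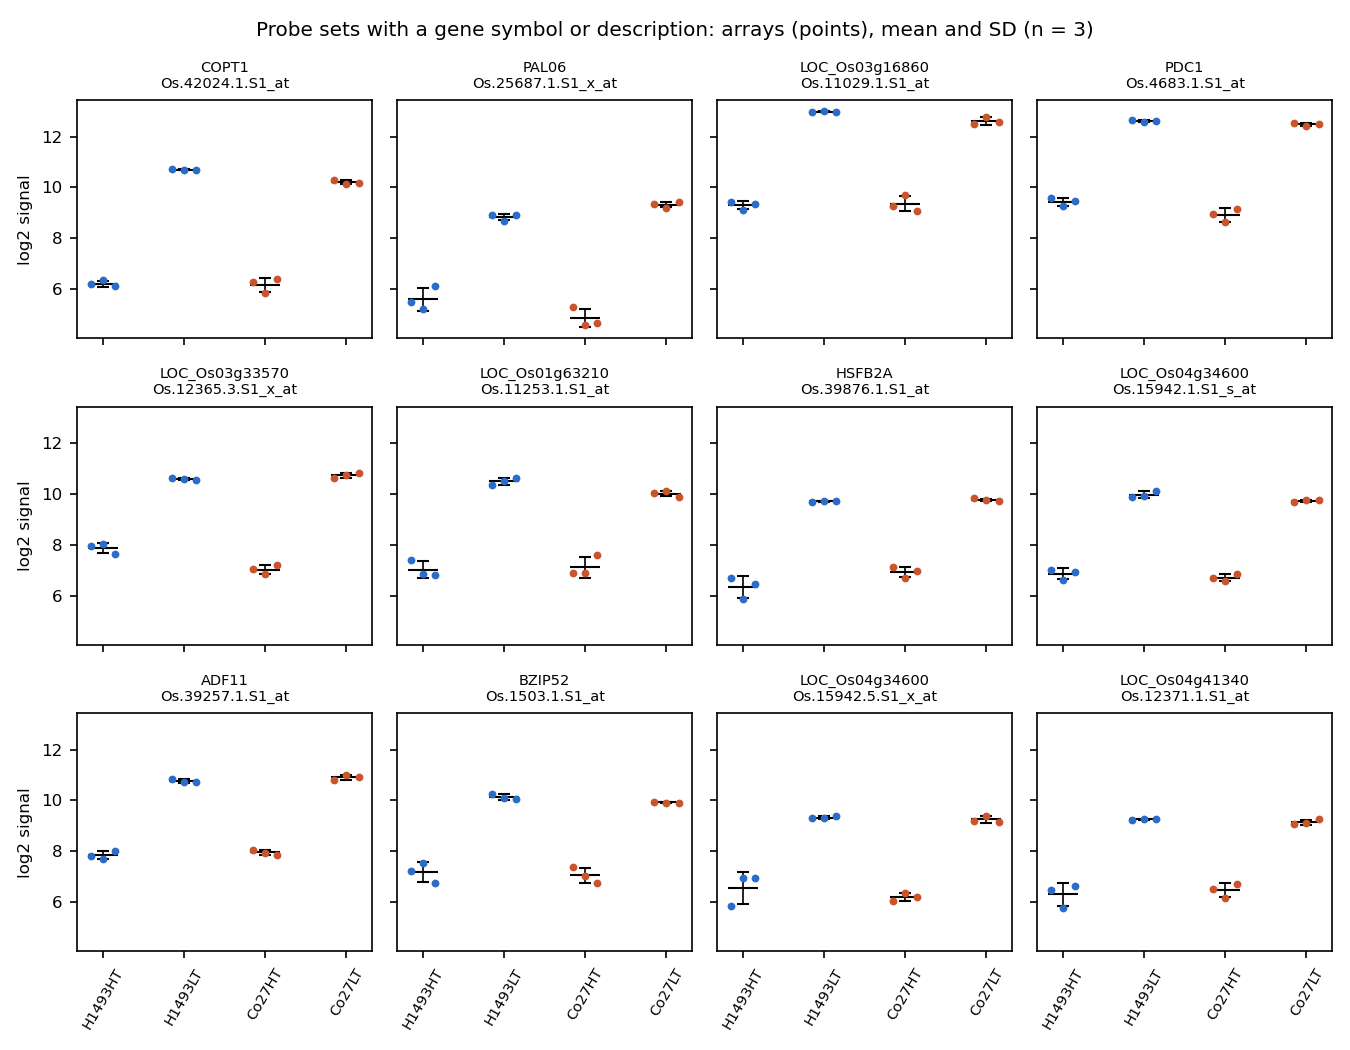
Log2 signals of the 12 probe sets with a gene symbol or description, 1 panel each, with the 3 arrays of each group as points and the group mean and SD as a bar with whiskers (n = 3). In every panel both low-temperature groups lie above both high-temperature groups, and the smallest difference in the panels is 2.67.

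LOC_Os03g16860, on chromosome 3, is described as a DnaK family protein, that is, an Hsp70-type chaperone that folds other proteins at the cost of ATP. Its log2 signals were 9.43, 9.13 and 9.36 in H1493HT, 12.97, 13.00 and 12.95 in H1493LT, 9.29, 9.69 and 9.09 in Co27HT and 12.48, 12.77 and 12.59 in Co27LT. It was among 7 members with a mean of at least 12 in both low-temperature groups, and there H1493 lay above TGMS-Co27 without overlap, while at high temperature the lines overlapped. The difference was 3.26 ± 0.16 in TGMS-Co27 and 3.67 ± 0.16 in H1493, or 9.57-fold and 12.7-fold. Of the other 39 genes in the list of molecular chaperones, limma called 0 higher and 10 lower in TGMS-Co27 (0 and 11 at an unadjusted p under 0.05 and 2-fold), and 1 was called higher and 8 lower in H1493, with medians of -0.28 and -0.22. The shares called higher and lower among all genes with a symbol were again 11.7% and 11% in TGMS-Co27 and 9.19% and 10.2% in H1493. BiP1, the Hsp70 of the endoplasmic reticulum, was at 12.37 and 13.00 in Co27HT and Co27LT and at 12.44 and 12.99 in H1493HT and H1493LT, a difference of 0.64 (adjusted p = 0.0014) and 0.56 (adjusted p = 0.0036), under 2-fold. BiP4 was dim and was not called.

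HSFB2A, on chromosome 4, is a class B heat stress transcription factor. Factors of this class bind the same heat shock elements as class A but lack its activation domain. The log2 signals of HSFB2A were 6.71, 5.86 and 6.46 in H1493HT and 9.68, 9.71 and 9.74 in H1493LT. They were 7.12, 6.70 and 6.99 in Co27HT and 9.83, 9.75 and 9.74 in Co27LT. The lines met at low temperature, with means 0.06 apart, and at high temperature TGMS-Co27 was the higher by 0.59, with 6.70 in Co27HT against 6.71 in H1493HT as the only overlap. The difference was 2.84 ± 0.20 in TGMS-Co27 (7.14-fold) and 3.37 ± 0.20 in H1493 (10.3-fold). A second probe set of the gene, Os.50642.1.S1_at, gave 2.10 and 2.30, under the limit of the rule.

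The other 19 heat stress factor genes with a symbol went in either direction. In its brightest probe set, HSFB2C gained 1.50 in TGMS-Co27 (limma adjusted p = 0.00037) and, in H1493, 1.19 (adjusted p = 0.0018), although another probe set, Os.11941.1.S1_at, was lower by -2.23 (adjusted p = 0.037) and -5.11 (adjusted p = 0.00046), so its direction is uncertain. HSFA2C, a class A factor, gained 1.13 in TGMS-Co27 (adjusted p = 8e-06) and 2.28 in H1493 (adjusted p = 3.5e-07). HSFC1B fell by 5.00 in TGMS-Co27, from 10.98 to 5.98 (adjusted p = 1.5e-07), and by 3.91 in H1493, from 10.04 to 6.13 (adjusted p = 6.2e-07). HSFC2A, also of class C, fell by 1.18 (adjusted p = 0.0037) and 2.79 (adjusted p = 2.5e-05), and its call in TGMS-Co27 was lost with median centring and without Co27HT replicate 1. The call of the dim HSFB2B, which was higher in H1493 by 2.29 (adjusted p = 0.031), was lost in 7 of the alternatives. HSFA3 fell by 1.31 in H1493 (adjusted p = 3.3e-05) and was at 0.77 in TGMS-Co27 (adjusted p = 0.00071), under 2-fold as deposited and called higher with median centring. The other 13 genes were not called in either line as deposited. Over all genes with a symbol, the shares called higher and lower were 11.7% and 11% in TGMS-Co27 and 9.19% and 10.2% in H1493.

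BZIP52, on chromosome 6, is a basic leucine zipper factor whose transcript has been described as responsive to low temperature in rice seedlings. Its log2 signals were 7.24, 7.55 and 6.77 in H1493HT, 10.25, 10.11 and 10.04 in H1493LT, 7.38, 7.02 and 6.77 in Co27HT and 9.95, 9.92 and 9.91 in Co27LT. The lines overlapped at high temperature, and at low temperature H1493 lay just above TGMS-Co27, by 0.21 in the means. The difference was 2.87 ± 0.21 and 2.95 ± 0.21, or 7.32-fold and 7.71-fold, in TGMS-Co27 and H1493. Of the 6 other bZIP genes with a symbol, none was called higher in either line, under limma or any alternative tried. Over all genes with a symbol, 11.7% were called higher in TGMS-Co27 and 9.19% in H1493, so nothing is read from a count of 6 genes. Genes of the family without a symbol were not looked up. BZIP23, known for a part in drought and abscisic acid responses, was lower in H1493 by -1.59 (adjusted p = 3.8e-06), from 11.92 to 10.33, and in TGMS-Co27 by -0.63 (adjusted p = 0.00068), under 2-fold.

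BZIP52 and HSFB2A belong to the list of transcription factors, the one list with 2 members among the 58. Of its other 160 genes, 23 were called higher and 21 lower in TGMS-Co27 and 18 and 23 in H1493, with 14 higher and 14 lower in both. Among all 2915 genes with a symbol, 11.7% were called higher and 11% lower in TGMS-Co27, and 9.19% and 10.2% in H1493, and nothing particular to the list is read from these counts. By size, the leading genes of the list called in both lines were HSFC1B, the homeobox genes HOX24 and HOX14, and WRKY24. HOX24 fell by 3.81 in TGMS-Co27 (adjusted p = 4.7e-07) and by 4.11 in H1493 (adjusted p = 4.4e-07), and HOX14 by 2.67 (adjusted p = 1.1e-06) and 3.31 (adjusted p = 5.1e-07). WRKY24 gained 3.95 (adjusted p = 0.00083) and 2.26 (adjusted p = 0.021), from means of 3.82 and 4.70 near background, and its call in H1493 was lost without any 1 of the 3 H1493LT arrays or when only the 6 arrays of that line were fitted.

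**Figure D4:**
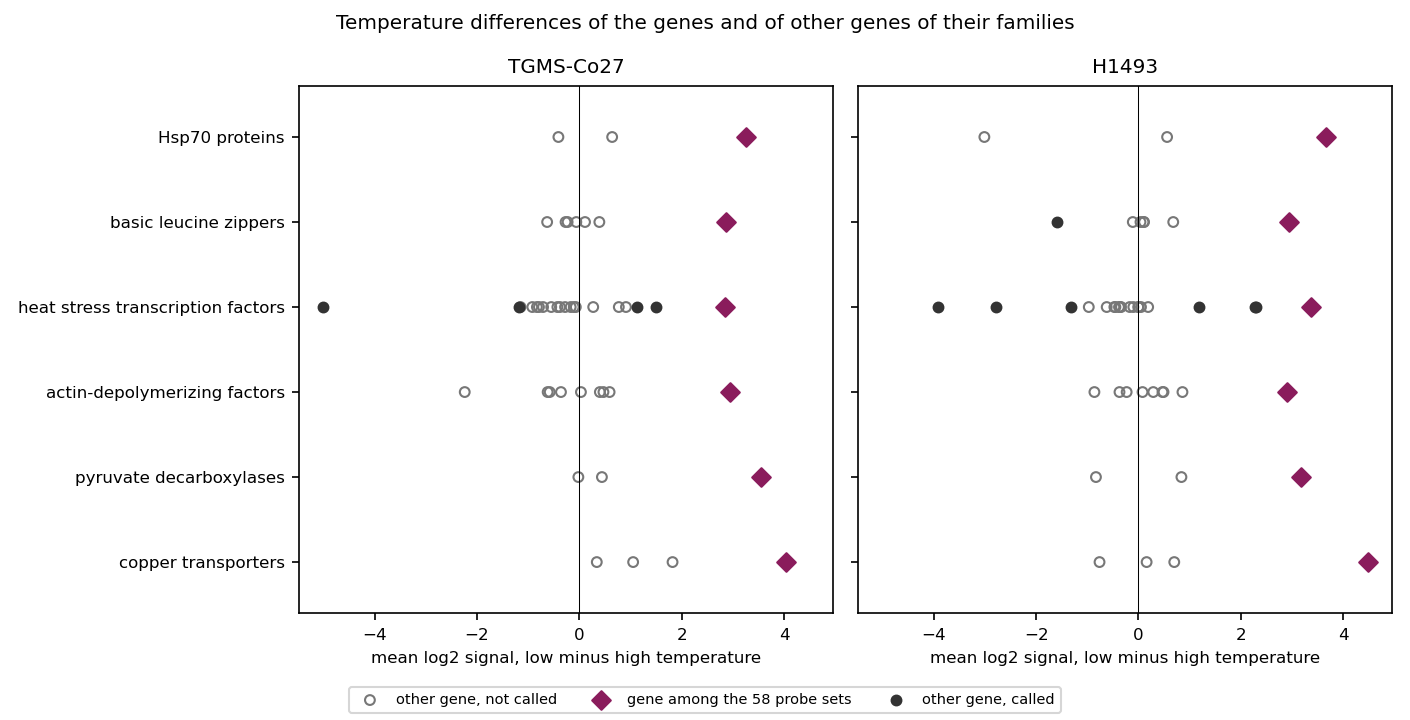
Log2 difference between low and high temperature (horizontal axis) in TGMS-Co27 (left) and H1493 (right) for genes among the 58 probe sets (diamonds) and for other genes of the same families, by their brightest probe set (filled circles called at an adjusted p under 0.05 and 2-fold, open circles not). HSFC1B lies farthest to the left at -5.00 in TGMS-Co27 and at -3.91 in H1493, and the diamonds were placed past 2.5 by the rule.

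ADF11, on chromosome 12, encodes an actin-depolymerizing factor, a small protein that severs and recycles actin filaments. It was at 7.82, 7.70 and 8.01 in H1493HT and at 10.83, 10.71 and 10.74 in H1493LT, and at 8.07, 7.94 and 7.87 in Co27HT and 10.82, 11.01 and 10.91 in Co27LT. The lines overlapped at either temperature, and the differences of 2.95 ± 0.11 and 2.91 ± 0.11 in TGMS-Co27 and H1493 were within 0.04 of each other. The other 8 ADF genes with a symbol, looked up after the values were seen, had differences of -2.24 to 0.59 in TGMS-Co27 and -0.86 to 0.86 in H1493, and limma called none as deposited. Over all genes with a symbol, 11.7% were called higher and 11% lower in TGMS-Co27, and 9.19% and 10.2% in H1493. Nothing is read from a count of 8 genes beside these shares. ADF4 had means of 14.48 and 14.12 in Co27HT and Co27LT and of 14.34 and 14.12 in H1493HT and H1493LT. ADF7 was called higher in H1493 with median centring (0.86 as deposited), and the dim ADF6 was called lower in TGMS-Co27 in 5 alternatives (-2.24, adjusted p = 0.052 as deposited).

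LOC_Os04g34600, described as an abscisic stress-ripening protein, a class of small hydrophilic plant proteins known from drought and abscisic acid treatment, had 2 probe sets among the 58. The first, Os.15942.1.S1_s_at, was at 7.03, 6.63 and 6.94 in H1493HT, 9.88, 9.92 and 10.11 in H1493LT, 6.70, 6.57 and 6.86 in Co27HT and 9.69, 9.76 and 9.76 in Co27LT. The second, Os.15942.5.S1_x_at, was at 5.85, 6.95 and 6.94 in H1493HT, 9.30, 9.30 and 9.39 in H1493LT, 6.06, 6.36 and 6.20 in Co27HT and 9.21, 9.41 and 9.16 in Co27LT. At high temperature the lines overlapped in both probe sets, and at low temperature H1493 lay above TGMS-Co27 in the first and overlapped with it in the second. Both probe sets can share target with related sequences, by their suffixes, and they gave nearly the same differences of 3.03 and 3.06 in TGMS-Co27 and 3.10 and 2.75 in H1493. Of the other 89 genes in the list of hormone genes, in which the words of its description place this locus, 20 were called higher and 11 lower in TGMS-Co27 and 16 and 12 in H1493. Over all genes with a symbol these shares were 11.7% and 11% in TGMS-Co27 and 9.19% and 10.2% in H1493.

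LOC_Os01g63210, on chromosome 1, is described as a SOUL heme-binding protein, and heme binding is what the name of that family stands for. Its log2 signals were 7.39, 6.86 and 6.82 in H1493HT, 10.35, 10.50 and 10.61 in H1493LT, 6.89, 6.88 and 7.59 in Co27HT and 10.02, 10.10 and 9.90 in Co27LT. At low temperature H1493 lay above TGMS-Co27 without overlap, by 0.48, close to the limit of the rule, and the difference was 3.46 ± 0.22 in H1493 and 2.89 ± 0.22 in TGMS-Co27. LOC_Os04g41340, on chromosome 4, is described as a 4-nitrophenylphosphatase, an enzyme name taken from a synthetic test substrate. It was at 6.49, 5.79 and 6.65 in H1493HT, 9.25, 9.26 and 9.26 in H1493LT, 6.52, 6.18 and 6.72 in Co27HT and 9.08, 9.10 and 9.26 in Co27LT, with differences of 2.67 ± 0.22 in TGMS-Co27 and 2.95 ± 0.22 in H1493. The lines overlapped at either temperature. The words of its description place it in the list of kinases, phosphatases and calcium signalling, of whose other 149 genes 27 were called higher and 15 lower in TGMS-Co27 and 8 and 13 in H1493. The shares over all genes with a symbol were 11.7% and 11% in TGMS-Co27 and 9.19% and 10.2% in H1493, and the lines were not compared over this list.

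LOC_Os03g33570, on chromosome 3, is described in the supplementary tables as a calcineurin B-like protein, while RefSeq holds the matching gene as a long non-coding RNA, so no role is given to it here. Its probe set Os.12365.3.S1_x_at was at 7.95, 8.02 and 7.65 in H1493HT, 10.63, 10.60 and 10.53 in H1493LT, 7.04, 6.85 and 7.19 in Co27HT and 10.63, 10.75 and 10.84 in Co27LT. At high temperature TGMS-Co27 lay below H1493 without overlap, by 0.85, and at low temperature the lines met at 10.63. The difference was 3.71 ± 0.13 in TGMS-Co27 and 2.72 ± 0.13 in H1493. Of 2 further probe sets of the locus, Os.12365.2.S1_at gave 4.49 and 3.41 and Os.12365.4.S1_x_at gave 1.02 and 0.45, so the probe sets of this locus do not give one size.

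Another 21 probe sets, for 20 genes, carry a gene identifier but no description. Their differences were 2.54 to 4.60 in TGMS-Co27 (median 3.28) and 2.55 to 4.68 in H1493 (median 2.87). The largest in TGMS-Co27 was that of LOC4331496, on chromosome 3, which RefSeq lists as a long non-coding RNA. It was at 8.30, 7.89 and 7.94 in H1493HT, 12.17, 12.16 and 12.24 in H1493LT, 7.62, 7.53 and 8.01 in Co27HT and 12.31, 12.36 and 12.30 in Co27LT, which is 24.3-fold in TGMS-Co27 and 17.7-fold in H1493. LOC4339516, on chromosome 5, gave the highest signals, which set no order of transcript number between genes, at 10.77, 10.66 and 10.52 in H1493HT, 13.92, 13.93 and 13.89 in H1493LT, 11.03, 11.05 and 11.29 in Co27HT and 13.89, 13.89 and 13.88 in Co27LT. In the low-temperature groups it stood at the 99.6th percentile of all probe sets in both lines. LOC9272389, on chromosome 4, was met by 2 probe sets that are not independent, with differences of 3.85 and 3.67 in TGMS-Co27 and 3.05 and 2.79 in H1493.

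LOC4341468 and LOC4341467 are next to each other on chromosome 6 in the RefSeq annotation of assembly ASM3414082v1, with 0 genes between them. The first was dim at high temperature, at 3.91, 5.50 and 4.57 in H1493HT and 5.23, 4.75 and 6.12 in Co27HT, and at 9.39, 9.24 and 9.41 in H1493LT and 9.34, 9.13 and 9.47 in Co27LT. The second was brighter, at 7.97, 8.22 and 8.06 in H1493HT, 8.31, 7.94 and 8.02 in Co27HT, 10.70, 10.56 and 10.63 in H1493LT and 10.77, 10.75 and 10.66 in Co27LT. The neighbours differed in the size of the difference, with 3.95 against 2.64 in TGMS-Co27 and 4.68 against 2.55 in H1493. No other 2 members lie within 10 genes of each other there, and the 30 mapped genes lie on 9 chromosomes, with 6 on chromosome 3, 5 each on chromosomes 1 and 4, 4 on chromosome 6, 3 each on chromosomes 5 and 9, 2 on chromosome 2, and 1 each on chromosomes 7 and 12.

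For the last 25 probe sets neither source gives a gene. Their differences were 2.52 to 5.40 in TGMS-Co27 (median 3.19) and 2.51 to 4.71 in H1493 (median 3.04), much like those of the named ones, and the largest differences of all are among them. OsAffx.16104.1.S1_at was at 2.91, 2.59 and 4.91 in H1493HT, 8.27, 8.21 and 8.04 in H1493LT, 2.45, 1.12 and 4.66 in Co27HT and 8.21, 8.13 and 8.07 in Co27LT. Its size rests on single dim arrays, since the 5.40 of TGMS-Co27 became 4.59 without Co27HT replicate 2 and 6.35 without Co27HT replicate 3, and the 4.71 of H1493 became 5.43 without H1493HT replicate 3. It was the only member whose fold moved by over 1.5 times when 1 array was left out. Os.6315.1.S1_at was bright throughout, at 7.89, 7.44 and 8.0 in H1493HT, 12.41, 12.43 and 12.39 in H1493LT, 7.26, 7.48 and 7.28 in Co27HT and 12.50, 12.63 and 12.58 in Co27LT, which is 24.8-fold in H1493 and 37.5-fold in TGMS-Co27. Os.37121.1.S2_at gave 4.57 in TGMS-Co27 and 4.34 in H1493, or 23.8-fold and 20.3-fold.

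For 6 of the member genes, 8 further probe sets missed the rule. Beside those of PAL06, HSFB2A and LOC_Os03g33570, LOC4347641 gave 2.34 and 2.56, LOC4337192 gave 2.86 and 2.63 at low signals, and LOC4346940 gave 1.59 and 1.56 in one probe set and 1.98 and 1.50 in the other, in TGMS-Co27 and H1493. All 8 gave higher low-temperature means in both lines, as differences of the same arrays that chose the members.

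The rule held the lines close but left room within its limits. At high temperature Co27HT lay below H1493HT in 37 of the 58 (63.8%, against 51.9% of all probe sets whose mean log2 signal is 6 or more), with a median line difference of -0.26 and a range of -0.96 to 0.78. All H1493HT arrays lay above all Co27HT arrays in 13, and the reverse held in 4, where 20.2% and 17% of all probe sets of that brightness did so. At low temperature the median was -0.01 and the range -0.50 to 0.48, with TGMS-Co27 the lower in 30 and the higher in 28. There the arrays of the lines did not overlap in 14 with H1493 above and in 14 with TGMS-Co27 above, where 17.6% and 14.2% of all probe sets of that brightness did so. Largest at low temperature were the line differences of LOC4334020 (-0.50), COPT1 (-0.49), LOC_Os01g63210 (-0.48), PAL06 (0.48) and OsAffx.13360.1.S1_at (0.44), and smallest those of OsAffx.8136.1.S1_at (0.00), LOC4336753 (-0.01) and Os.11908.1.S1_s_at (-0.01). The temperature difference was the larger in TGMS-Co27 for 35 members and in H1493 for 23, and the gap between the lines ran from -0.74 for LOC4341468 to 1.23 for PAL06, with a median of 0.23. OsAffx.2821.1.S1_at and Os.4940.1.S1_at, at 1.16 each, followed PAL06. These line differences entered the rule, so no test is given for them.

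**Figure D5:**
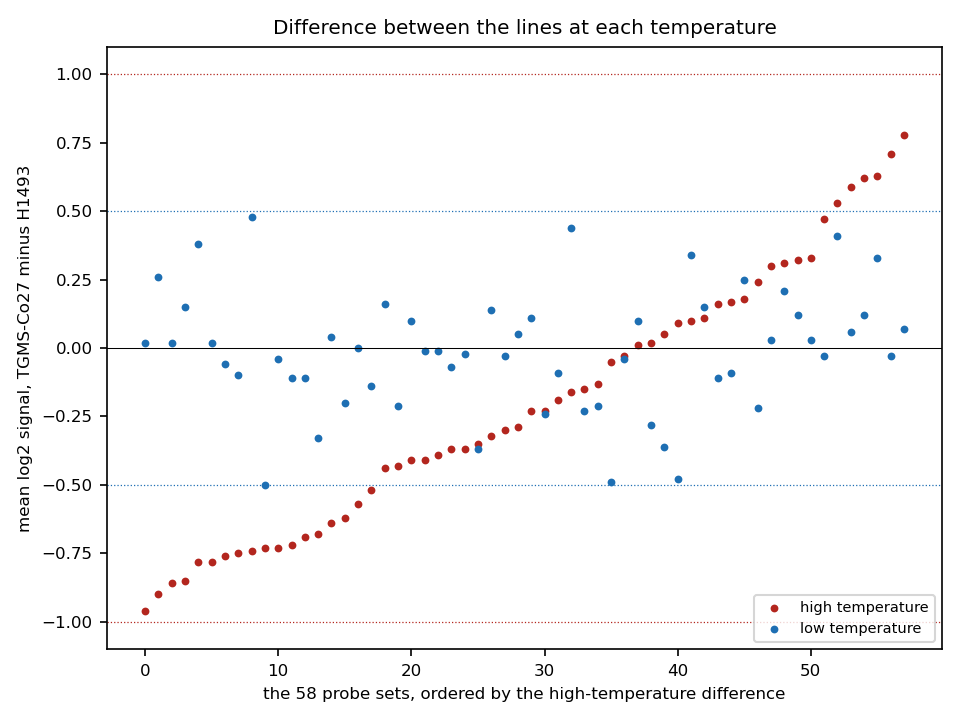
Mean log2 signal of TGMS-Co27 minus that of H1493 (vertical axis) for each of the 58 probe sets (ordered by the high-temperature value) at high temperature (red) and low temperature (blue), with the limits of the rule dotted. Of the red points, 37 lie below 0, down to -0.96, and the blue points lie between -0.50 and 0.48.

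The same rule turned round, with the high-temperature groups bright and alike and the low-temperature groups lower, gave 182 probe sets, more than the 58 described here. Their median differences were -3.36 in TGMS-Co27 and -3.21 in H1493. Of the 12 probe sets with a symbol or description, none was in the list of cold and dehydration genes, and the other 46 could not be placed. Lists go by the words of symbols and descriptions. BZIP52 and LOC_Os04g34600, tied above to low temperature or to drought, are placed under transcription factors and hormones. The absence of members from the cold and dehydration list thus does not mean that the 58 hold no gene of these responses. Of the 21 genes of that list with a symbol, 7 were called higher and 4 lower in TGMS-Co27 and 3 and 8 in H1493, beside 11.7% and 11% in TGMS-Co27 and 9.19% and 10.2% in H1493 of all genes with a symbol.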

How the data were processed

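Each of the 12 arrays has log2 signals as the authors deposited them, made with Affymetrix's operating software and MAS 5.0, with detection calls. The methods name quantile normalization, but the arrays keep different medians (5.23 to 5.74) and a shared 2% trimmed mean (497.4 to 498.3 in linear units), so no further normalization was applied. An array holds 544 to 1960 values of 0. In R 4.3.3, limma 3.58.1 fitted 4 group means to 57194 probe sets (eBayes, prior 0.99 degrees of freedom) and was checked on simulated data. The number of arrays limits the precision, as do signals near background. Genes were named through RefSeq and the array's annotation (22436 probe sets with 1 gene, 95 with several, 34663 with none, 3761 with a symbol), and descriptions of members from the study's supplementary tables, as names only. A gene was represented by its brightest probe set. Named were members with a symbol or description, those with the largest differences, those nearest to each limit, and, in lists with 2 members, the 4 most changed other genes called in both lines. The annotation holds no descriptions, so other genes entered lists by symbol. The members and lists were chosen with earlier results of these data known. Alternatives were quantile normalization, median centring, a floor at log2 5, each array left out, only the 6 arrays of a line, limma-trend, a replicate block, a mean of at least 6, an unadjusted p, and, for the 58, other limits of the rule, detection and probe suffixes.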

Additional observations from a re-analysis of the deposited data

Results flagged for a closer look

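Between the lines, the temperature difference itself differed by limma's interaction term (an adjusted p under 0.05 and at least 1 on the log2 scale) for 4 probe sets of genes named beside the 58. It is given as the log2 difference in TGMS-Co27 minus that in H1493. HSFA3, a heat stress factor, stood at 2.08 (adjusted p = 0.00098), with the 3 low-temperature arrays above the high-temperature ones in TGMS-Co27 and below them in H1493. HSFA2C was higher at low temperature in both lines, on 3 of 3 arrays each, and by less in TGMS-Co27, at -1.15 (adjusted p = 0.0032), while a dimmer probe set of it gave 1.81 (adjusted p = 0.29). CAB2R, a green tissue marker that encodes a chlorophyll-binding protein, stood at 1.37 (adjusted p = 0.011), and another probe set of it at -0.08 (adjusted p = 0.88). A probe set of the floral gene MADS14, Os.50429.1.S1_at, stood at 1.79 (adjusted p = 0.013), and the brightest one of that gene at 0.43 (adjusted p = 0.2).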

How the results depend on the processing

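The number of probe sets that met the rule was 145 with a difference of at least 2 (all 58 among them), 23 with at least 3, 54 with quantile normalization (53 of the 58), 76 with median centring (56), 61 with a floor at log2 5 (58), 48 when present on at least 9 arrays and 46 without the suffixes _x_at and _s_at. With 1 array left out it was 53 to 59, the fewest without H1493HT replicate 2, with at least 52 of the 58 each time. Over all probe sets, 4037 were called higher in Co27LT as deposited and 6191 with median centring, and 4179 were called lower as deposited, 2708 with median centring and 2726 among probe sets with a mean of at least 6. With 1 array left out, the higher calls were 3772 to 4333 in TGMS-Co27 and 2833 to 3324 in H1493, the lower calls 3801 to 4182 and 3208 to 3583, and the calls over all lists 430 to 458 (450 as deposited). The replicate numbers were not taken to pair the samples. Arrays of the same number in different groups deviated with correlations of -0.097 to 0.040, and arrays of different numbers reached 0.115. With 3 arrays per group these values cannot exclude a pairing. With the number as a block, 3984 and 2995 were called higher and 4101 and 3483 lower, and 449 over all lists.

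The rule chose the members by the size of their differences, so that none changed sign in any alternative was built in and is not a result. These differences ran from 2.20 to 6.35 with 1 array left out and from 2.69 to 5.68 with median centring. Among 116 such differences (58 in each line), 70 moved by more than the replicate SD with median centring, 3 with the floor and 1 with quantile normalization. Of the other named genes, none that was called as deposited or in an alternative changed direction there. Sign changes of genes called in neither were not counted. Calls that were lost are given beside the values of those genes, except that the TGMS-Co27 call of the meiocyte marker PAIR1 was lost with only the 6 arrays of that line. The number of arrays, 3 per group, and signals near background at high temperature limit the sizes. Site, season and day length cannot be told apart from temperature.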
